A study of Homo sapiens with 24 samples.

Results

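The comparison described here set OVCAR8 cells given boiled senescent conditioned medium against OVCAR8 cells given fresh medium. It was chosen by the treatment named in the labels, with no use of measured values, and takes 6 of the 24 samples of the series, 3 in each group. OVCAR8 is an established line of high grade serous ovarian cancer. All groups were held in ultra-low attachment plates, on which cells stay in suspension, and the treatment text common to all samples gives conditioned medium mixed 1 to 1 with RPMI 1640 medium plus 5%. The line itself was grown in RPMI 1640 with 5% fetal bovine serum. Senescent medium had been collected from cells driven into senescence with the DNA crosslinking drug cisplatin, and proliferative medium from dividing cells given vehicle. In the boiled group the senescent medium was boiled before use, and the fresh group received medium that no cells had conditioned. Other groups that enter below received senescent medium left intact, its fraction below 3 kDa (small fraction), its fraction above 3 kDa (large fraction) or proliferative medium, again with 3 samples each. The labels name pre-treated groups as well, which entered only the shared estimate of the spread. The cells that conditioned the medium, the length of boiling and the length of exposure do not appear in the labels. The 24 samples of the series include no boiled fresh medium and no boiled proliferative medium. Conditioning as such, senescence of the source cells and boiling therefore cannot be told apart in this comparison.

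Senescent cells stop dividing but stay metabolically active, and they release cytokines, proteases, growth factors and matrix proteins, known together as the senescence-associated secretory phenotype. Conditioned medium also carries what the source cells excreted and lacks what they consumed, such as glucose, amino acids and lipids. Boiling denatures most proteins, while many metabolites, salts and heat-stable peptides withstand it. The series' design text states that the part of the secretion that is not protein was the reason to boil or fractionate the medium.

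Sequencing measured polyA RNA. The 24 samples held 14718120 to 21956598 counts, with 16330543 to 21956598 in the boiled and 15246741 to 17777279 in the fresh samples. Mitochondrially encoded genes took 4.62% to 4.76% of counts in boiled and 4.92% to 5.05% in fresh samples, and ribosomal protein genes 5.83% to 6.21% and 5.62% to 5.76%. Levels below are the authors' FPKM, counts scaled by gene length and library depth, given in the order of replicates 1, 2 and 3. Changes are log2 fold changes of boiled over fresh medium ± standard error (SE, n = 3 per group), and adjusted p values come from edgeR's quasi-likelihood test with Benjamini-Hochberg adjustment over the 19210 genes that passed its filter on low counts. "Rose" and "fell" are written of genes below an adjusted p of 0.05, and other changes are given as values. Whether replicates were separate cultures does not follow from the labels, so p values here reflect only the spread between samples, which may be technical. In bulk RNA, fewer cells of a kind and less RNA per cell cannot be told apart. The strand setting of the counting is likewise not stated, so reads of overlapping genes cannot be told apart either. Among genes named below, C3, CA9, SOCS1, IFIT2, IL6, HLA-C, CCNE2, CENPA and DDIT3 overlap a neighbour that had more counts. So do FADS2, RAD54L, BCL2L11, AHRR, ACADM, ETFDH and POTEE. Overlap was checked for 212 genes only, so other genes named below may overlap a neighbour as well. Coordinates are on GRCh38.

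Boiled medium changed a broad set of genes, mostly by modest amounts. In total 5359 of 19210 genes (27.9%) were called, 2695 higher (14%) and 2664 lower (13.9%), and the median absolute log2 change of called genes was 0.40. A log2 change past 1 was reached by 463 of the rises (2.41% of genes tested) and 163 of the falls (0.849%), of which 222 and 86 had a mean FPKM of at least 1. The median over all genes tested was 0.00, with a 5th percentile of -0.71 and a 95th percentile of 0.88. The FPKM of the 3 boiled and 3 fresh samples did not overlap for 7992 genes (41.6%). These shares are the background for the counts of each gene list below.

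**Figure D1:**
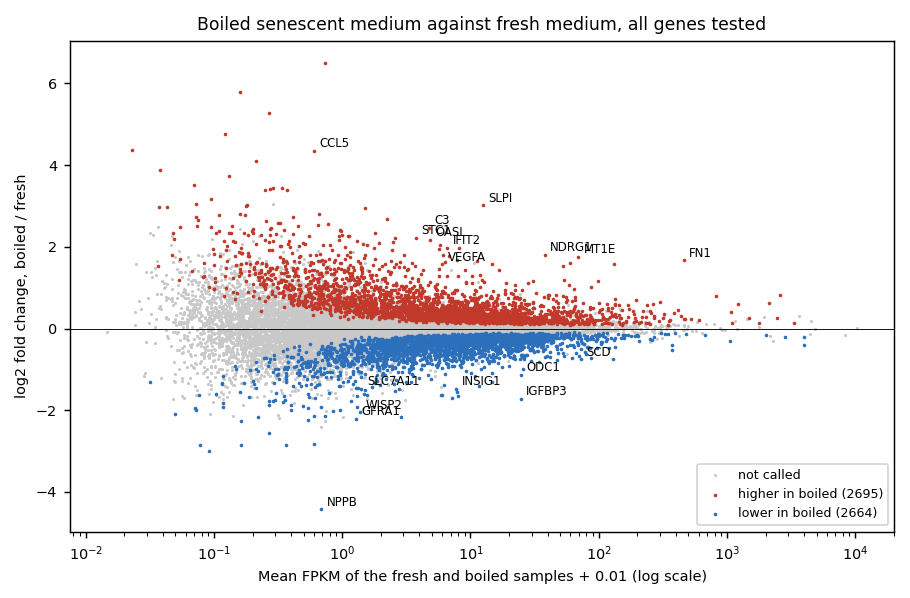
Each point is a gene tested, with its mean FPKM over the fresh and boiled samples on a log axis and its log2 fold change of boiled over fresh medium. The 2695 genes called higher are red, the 2664 called lower are blue, and the most abundant of the strongly raised genes is FN1 at 699 FPKM in boiled medium.

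**Figure D2:**
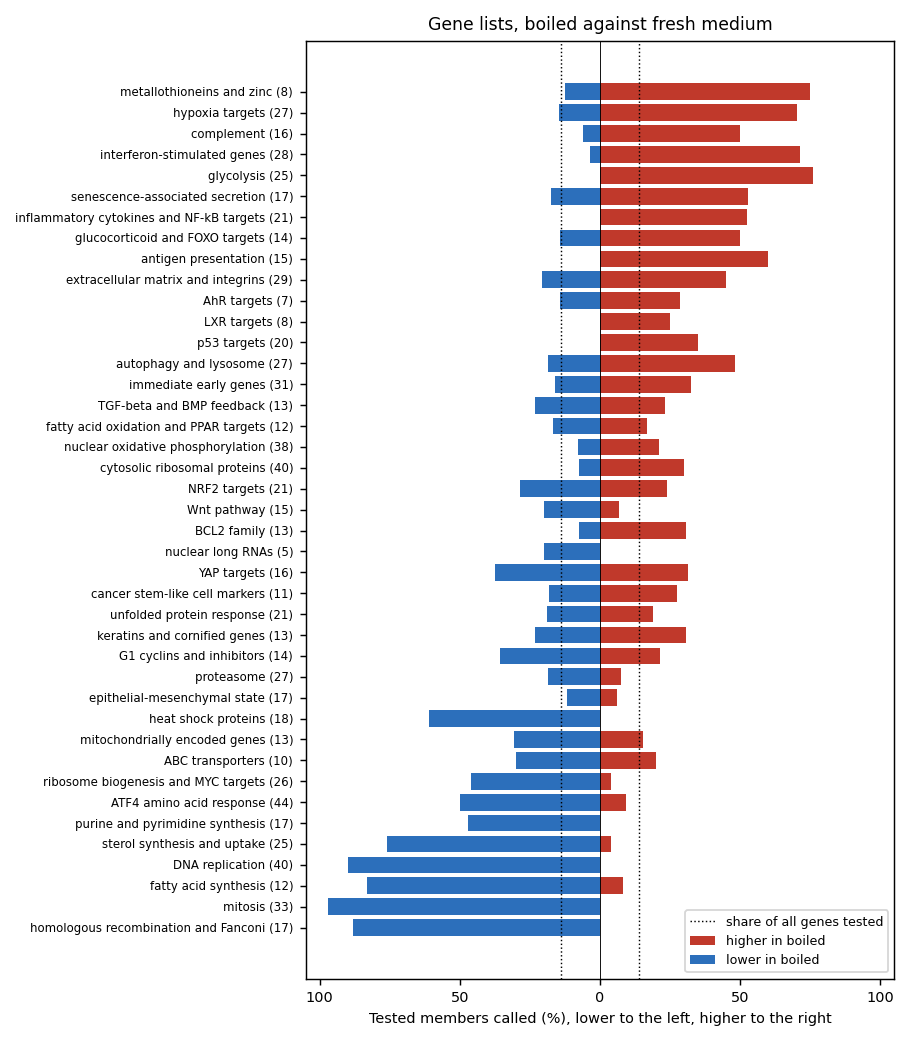
Bars give the percentage of each list's tested members that were called higher (red, right) or lower (blue, left) in boiled medium, with the number tested in parentheses and the lists ordered by their median log2 change. Dotted lines mark the shares over all genes tested, 14% and 13.9%.

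Genes induced by low oxygen were higher in boiled medium. Under normal oxygen, prolyl hydroxylases mark the HIF alpha subunits for destruction, and when oxygen or the enzymes' cofactors run short HIF switches on genes for glucose use, vessel growth and acid export. Of 30 listed hypoxia targets 27 passed the filter, 19 rose and 4 fell, and the median log2 change was 0.75. EPO, NDUFA4L2 and COX4I2 were below the filter. NDRG1, a stress-response gene strongly driven by HIF (ENSG00000104419, chromosome 8, 133237171 to 133302022), stood at 17.5, 17.1 and 16.05 FPKM in fresh and 58.1, 59.2 and 60.1 FPKM in boiled medium. Every boiled sample lay above every fresh sample, and the change was 1.80 ± 0.04 (edgeR adjusted p = 1.84e-34). The vessel growth factor VEGFA (ENSG00000112715, chromosome 6, 43770184 to 43786487) read 3.35, 2.96 and 2.75 FPKM in fresh and 8.63, 8.70 and 9.62 FPKM in boiled medium. Its groups did not overlap either (1.57 ± 0.09, edgeR adjusted p = 7.64e-12). The secreted calcium-regulating hormone STC1 had 1.39, 1.38 and 1.17 FPKM in fresh and 6.77, 6.18 and 5.46 FPKM in boiled medium, again without overlap (2.22 ± 0.11, edgeR adjusted p = 6.04e-21). ANGPTL4, a secreted inhibitor of lipoprotein lipase, rose from 1.02 ± 0.163 to 3.88 ± 0.238 FPKM (SD, n = 3) with 1.93 ± 0.14.

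The carbonic anhydrase CA9, a membrane enzyme that acidifies the outside of hypoxic cells, was scarce, with 7 counts over the fresh and 44 over the boiled samples. Its FPKM were 0.201, 0.0385 and 0 FPKM in fresh and 0.342, 0.366 and 0.658 FPKM in boiled medium, and the lowest boiled sample lay above the highest fresh one. The ratio of depth-scaled counts was 5.71 with an exact 95% interval of 2.55 to 15.03, which covers counting error only (edgeR adjusted p = 0.00207). CA9 overlaps ARHGEF39 on the opposite strand, which had 1280 counts and a log2 change of -0.80. Genes that steer mitochondrial use rose: the mitophagy receptor BNIP3 rose by 1.11 ± 0.05 on the log2 scale, its relative BNIP3L rose by 0.82, and PDK1, the kinase that holds pyruvate out of mitochondria, by 0.97 ± 0.08. Of 8 genes of oxygen sensing and collagen hydroxylation, 6 rose, among them the HIF hydroxylase EGLN3 (1.01) and the collagen hydroxylase P4HA1 (0.80). The 4 targets that fell were the growth factor carrier IGFBP3, the vasodilator peptide ADM (-1.08), the mTORC1 inhibitor DDIT4 (-0.95) and the clock repressor BHLHE40 (-0.15). IGFBP3 (ENSG00000146674, chromosome 7, 45912245 to 45921874) had the largest fall of them, at 36.9, 38.1 and 38.0 FPKM in fresh and 11.6, 11.03 and 11.7 FPKM in boiled medium. The fresh samples were higher without overlap (-1.72 ± 0.06, edgeR adjusted p = 4.21e-27).

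HIF binds DNA at a short core, ACGTG or GCGTG, and stretches holding it upstream of 3 of the risen targets are shown because hypoxia targets were among the lists with most rises. Sequences are RefSeq promoters of GRCh38.p14, 5′ to 3′ on the gene's strand, with the core or its reverse complement in capitals. They lie at chr9:35673898-35673926 (+) for CA9, chr19:8363909-8363937 (+) for ANGPTL4 and chr10:131982011-131982078 (-) for BNIP3.
CA9: tcgtttccaatgCACGTacagcccgtaca
ANGPTL4: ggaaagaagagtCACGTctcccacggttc
BNIP3: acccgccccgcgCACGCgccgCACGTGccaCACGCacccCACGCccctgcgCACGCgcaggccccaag
In the 250 bases upstream of the start, either strand, 17 of 21 tested hypoxia targets with a promoter in the table held the core, against 43.1% of 27305 promoters. Among the targets that rose, 9 of 13 did, a smaller share than in the whole list. A match is a description of letters and not evidence of binding.

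Glycolytic genes were higher as a group. Glycolysis splits glucose to pyruvate for energy, and cells short of oxygen reduce the pyruvate to lactate. All 25 listed genes passed the filter, 19 rose and none fell, and the median log2 change was 0.53. PGK1, which makes the first ATP of the pathway, read 58.4, 56.5 and 58.2 FPKM in fresh and 116, 117 and 119.8 FPKM in boiled medium. Boiled samples lay above fresh ones throughout (1.02 ± 0.03, edgeR adjusted p = 5.94e-27). The isomerase GPI rose from 22.6 ± 0.562 to 41.7 ± 0.679 FPKM (SD, n = 3), and LDHA, which makes lactate, changed by 0.71. HK2, the inducible hexokinase that traps glucose in the cell, stood at 3.91, 3.94 and 3.67 FPKM in fresh and 5.52, 5.52 and 6.23 FPKM in boiled medium. Its change was smaller, with no overlap (0.58 ± 0.08, edgeR adjusted p = 4.44e-08). The largest change of the list was in TXNIP, an arrestin-like protein that restrains glucose uptake and is induced by glucose metabolites (ENSG00000265972, chromosome 1, 145992435 to 145996600), at 62.3, 59.9 and 61.0 FPKM in fresh and 141, 139 and 134 FPKM in boiled medium. The boiled values were all higher (1.17 ± 0.04, edgeR adjusted p = 1.41e-26), and its paralog ARRDC4 rose by 0.95 ± 0.10. The main glucose transporter SLC2A1 rose by 0.27, while the lactate carrier SLC16A1 (0.06) and the kinase PFKM (-0.11) did not pass the test.

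**Figure D3:**
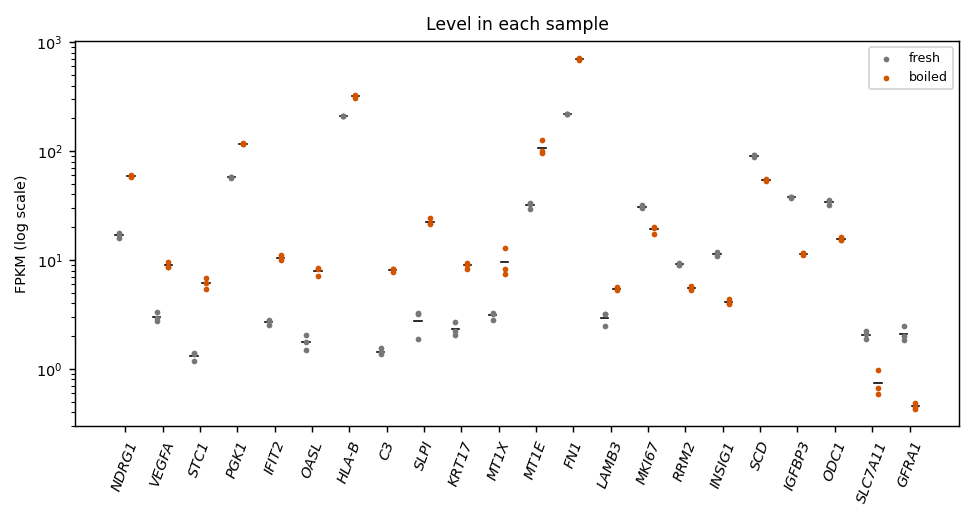
Points are the FPKM of single samples in fresh (grey) and boiled (orange) medium on a log axis, and short lines are group means. The genes shown have no overlap between the 3 fresh and the 3 boiled samples, from GFRA1 at 0.430 to 2.46 FPKM to FN1 at 217 to 713 FPKM.

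Interferon-stimulated genes were higher in boiled medium. Interferons, or viral RNA and DNA sensed inside the cell, activate STAT and IRF factors, which turn on antiviral effectors. Of 32 listed genes 28 passed the filter, and OAS1, RSAD2, CMPK2 and XAF1 did not. In this list 20 rose and 1 fell, with a median log2 change of 0.57. Most rises were in effectors, with 16 of 20 higher (median 0.98) against 4 of 8 sensors and signal genes (median 0.38). IFIT2, which binds RNA and blocks its translation (ENSG00000119922, chromosome 10, 89283694 to 89309276), stood at 2.73, 2.79 and 2.52 FPKM in fresh and 9.97, 11.02 and 10.6 FPKM in boiled medium. No boiled sample fell to the fresh range (1.97 ± 0.09, edgeR adjusted p = 1.83e-21). IFIT2 overlaps LIPA on the other strand, which had a log2 change of -0.01. OASL, an antiviral relative of the oligoadenylate synthetases, was at 1.495, 1.77 and 2.03 FPKM in fresh and 8.45, 7.15 and 8.28 FPKM in boiled medium (2.17 ± 0.11, edgeR adjusted p = 6.63e-20). MX1, a dynamin-like antiviral GTPase, had 0.675, 0.709 and 0.566 FPKM in fresh and 0.902, 1.26 and 1.27 FPKM in boiled medium, lower levels that still did not overlap (0.82 ± 0.15, edgeR adjusted p = 4.95e-05). IFI27 rose by 1.67 ± 0.09, IFIT3 by 1.65, IFIT1 by 1.28 and the ubiquitin-like ISG15 by 1.06. The transcription factors gave mixed values: IRF1 (0.62) and IRF7 (0.58) rose, while STAT2 (0.12) and IRF9 (0.14) did not pass the test. MX2 was the single fall (-0.23).

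The motif GAAANNGAA is the core of the element that these STAT and IRF complexes bind, and it is shown for 2 IFIT genes because most rises of the list were in effectors. The stretches are RefSeq promoters of GRCh38.p14, 5′ to 3′, at chr10:89392496-89392541 (+) for IFIT1 and chr10:89327830-89327896 (+) for IFIT3, with the motif on either strand in capitals.
IFIT1: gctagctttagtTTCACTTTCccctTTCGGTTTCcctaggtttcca
IFIT3: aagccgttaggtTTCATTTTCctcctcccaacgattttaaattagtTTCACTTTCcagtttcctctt
Within 250 upstream bases, 14 of 19 tested interferon-stimulated genes with a promoter in the table held the motif, against 7.06% of 27305 promoters, and 13 of the 15 that rose did.

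Class I antigen presentation, which shows peptides to T cells, was higher too: 9 of 15 genes rose, none fell, and the median log2 change was 0.30. HLA-B read 211, 210.3 and 211 FPKM in fresh and 309.9, 319 and 327 FPKM in boiled medium, without overlap (0.59 ± 0.04, edgeR adjusted p = 5.91e-14). HLA-E (0.59 ± 0.06), HLA-C (0.58 ± 0.10) and HLA-F (0.57 ± 0.11) rose by similar amounts, and HLA genes resemble each other, so the split of reads among them is uncertain. The peptide transporter subunits TAP1 (-0.02) and TAP2 (-0.08) did not pass the test.

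Of 24 inflammatory cytokines and NF-kB targets 21 passed the filter, 11 rose and none fell, with a median of 0.36. Without boiled replicate 1 the count was 7. The T cell chemokine CCL5 had the largest fitted rise among protein-coding genes with a mean of at least 1 FPKM and no overlap, from 4 counts over the fresh to 97 over the boiled samples. The ratio of depth-scaled counts was 22.0 with an exact 95% interval of 8.34 to 82.5. That interval covers counting error only and not the choice of the gene by the size of its rise. FPKM were 0.0740, 0.0425 and 0.0366 FPKM in fresh and 0.831, 1.21 and 1.36 FPKM in boiled medium (edgeR adjusted p = 8.79e-08), so only the boiled mean reached 1 FPKM. LIF, a cytokine of the IL6 family, rose by 0.83 ± 0.14. IL6 itself stood at 0.838, 0.746 and 1.12 FPKM in fresh and 2.07, 1.27 and 1.46 FPKM in boiled medium. The groups did not overlap (0.81 ± 0.24, edgeR adjusted p = 0.00924), but the call was lost without boiled replicate 1 or fresh replicate 2. The neutrophil chemokine CXCL8 had 0.689, 0.396 and 0.438 FPKM in fresh and 0.879, 0.753 and 1.07 FPKM in boiled medium (0.82 ± 0.31, edgeR adjusted p = 0.0435), a call lost in 7 other settings, among them without boiled replicate 1 or 3 or fresh replicate 2 or 3. CXCL2 (0.77 ± 0.23) lost its call without fresh replicate 2. Markers of leukocytes, a source of such cytokines, summed to 2.59 to 3.48 FPKM in fresh and 4.72 to 5.62 FPKM in boiled samples. CD3E and MS4A1 were at 0 in all 6 samples and PTPRC in 5 of them, and of the 4 tested of 10 CD14 rose (1.54 ± 0.24) and ITGAM fell (-0.99). The part of these markers in the interferon, cytokine and complement counts was not tested.

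Complement genes, whose products tag and lyse targets in plasma, were higher: 8 of 16 rose, 1 fell, and the median was 0.60. C3, the hub of the cascade (ENSG00000125730, chromosome 19, 6677704 to 6730562), read 1.54, 1.37 and 1.42 FPKM in fresh and 8.25, 8.19 and 7.68 FPKM in boiled medium. Its boiled samples were all above the fresh ones (2.47 ± 0.07, edgeR adjusted p = 4.19e-29). The C1 inhibitor SERPING1 (1.43 ± 0.08), the alternative pathway protease CFB (1.81 ± 0.19) and the classical pathway protease C1S (1.10 ± 0.06) rose. C4B rose too (1.47), at a mean below 1 FPKM in both groups, and its near-identical copy C4A makes its reads uncertain. The lipid-binding chaperone CLU fell (-0.78).

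Among 24 secreted factors known from senescent cells, other than cytokines, 17 passed the filter, 9 rose and 3 fell (median 0.40). The gelatinase MMP9 rose by 1.42 ± 0.25 and the urokinase PLAU by 0.53. MMP1, the interstitial collagenase, was at 8.86, 7.25 and 8.49 FPKM in fresh and 7.68, 9.22 and 7.95 FPKM in boiled medium. The 2 ranges overlapped (0.00 ± 0.10, edgeR adjusted p = 0.98). GDF15, a stress hormone, had 0.214, 0.277 and 0.239 FPKM in fresh and 0.438, 0.704 and 0.614 FPKM in boiled medium, and although the boiled samples were higher the change missed the threshold at these few counts (1.25 ± 0.53, edgeR adjusted p = 0.0744). It passed with no filter and in the fit of only the 6 samples.

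Several secreted epithelial genes had large rises. SLPI, a secreted inhibitor of neutrophil elastase (ENSG00000124107, chromosome 20, 45252239 to 45254564), stood at 1.88, 3.24 and 3.16 FPKM in fresh and 21.8, 24.1 and 21.4 FPKM in boiled medium. The lowest boiled value was far above the highest fresh value (3.02 ± 0.17, edgeR adjusted p = 9.66e-19). KRT17, a keratin of stressed and wound-edge epithelium, read 2.23, 2.03 and 2.69 FPKM in fresh and 8.32, 9.44 and 9.08 FPKM in boiled medium, also without overlap (1.94 ± 0.10, edgeR adjusted p = 1.38e-19). KRT16 rose by 2.55 ± 0.31 from 28 counts over the fresh samples, and both keratins have pseudogenes that make their reads uncertain. The ovarian serous marker WFDC2, a relative of SLPI on the same chromosome, rose from 0.585 ± 0.112 to 2.98 ± 0.367 FPKM (SD, n = 3; 2.33 ± 0.25). The siderophore-binding protein LCN2, at a mean below 1 FPKM in both groups, rose by 1.38. Of 28 listed keratins and cornified-layer genes 13 passed the filter, 4 rose and 3 fell. The falls were KRT15 (-1.37, at a mean below 1 FPKM in both groups), KRT7 (-0.73 ± 0.04) and KRT80 (-0.35).

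Metallothioneins, small cysteine-rich proteins that bind zinc and copper and are switched on by the zinc sensor MTF1, were higher. Of 11 genes of metal handling 8 passed the filter, 6 rose and 1 fell, and the median log2 change was 1.13. MT1E read 29.6, 33.3 and 32.4 FPKM in fresh and 100.1, 96.7 and 125 FPKM in boiled medium with no overlap (1.76 ± 0.12, edgeR adjusted p = 2.11e-09). MT1X (ENSG00000187193, chromosome 16, 56682424 to 56684196) was at 3.28, 2.83 and 3.22 FPKM in fresh and 7.44, 8.21 and 12.9 FPKM in boiled medium and MT2A, the most abundant, at 235, 246 and 227 FPKM in fresh and 339, 323 and 449 FPKM in boiled medium. In both genes every boiled sample exceeded every fresh sample, and the boiled replicate 3 was the highest of the 6 (MT1X 1.62 ± 0.22, edgeR adjusted p = 7.01e-06, and MT2A 0.64 ± 0.16, edgeR adjusted p = 0.00605). MT1M (2.04 ± 0.29) and MT1F (1.66 ± 0.23) rose, and the zinc exporter SLC30A1 rose by 0.36. The zinc importer SLC39A10 fell (-0.56), and MTF1 did not pass the test (-0.09). Metallothioneins are near-identical in sequence, so the split among them is uncertain.

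MTF1 binds metal response elements with the core TGCACNC or TGCGCNC, shown here for MT1X and MT2A because both rose and both carry several. The stretches come from RefSeq promoters of GRCh38.p14, 5′ to 3′, at chr16:56682308-56682435 (+) and chr16:56608444-56608583 (+), with the core on either strand in capitals. The MT2A stretch is cut to the 140 bases nearest the start and holds 4 of the 7 sites in its 250 upstream bases.
MT1X: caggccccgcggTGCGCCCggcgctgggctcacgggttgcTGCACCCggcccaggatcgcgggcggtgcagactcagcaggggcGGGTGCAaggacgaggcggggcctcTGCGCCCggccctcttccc
MT2A: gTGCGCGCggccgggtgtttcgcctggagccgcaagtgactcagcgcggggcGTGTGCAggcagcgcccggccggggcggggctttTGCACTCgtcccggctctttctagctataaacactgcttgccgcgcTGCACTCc
Of 5 tested members with a promoter in the table, 3 held the core within 250 bases, against 24.7% of 27305 promoters, and these were the 3 that rose.

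Matrix and adhesion genes went both ways. Of 31 listed genes 29 passed the filter, 13 rose and 6 fell, and the median was 0.20. FN1, fibronectin, the main adhesive protein of provisional matrix (ENSG00000115414, chromosome 2, 215360440 to 215436172), was among the most abundant genes to rise strongly, at 218, 217 and 219 FPKM in fresh and 700.4, 713 and 684 FPKM in boiled medium. The fresh samples lay close together and well below the boiled ones (1.67 ± 0.03, edgeR adjusted p = 3.74e-39). LAMB3, a chain of an epithelial basement membrane laminin, rose by 0.88 ± 0.10. The laminin receptor subunit ITGB4 read 104, 98.4 and 98.4 FPKM in fresh and 159.6, 168 and 169 FPKM in boiled medium (0.72 ± 0.04, edgeR adjusted p = 6.63e-20). TGFBI, an adhesive matrix protein, was at 289, 282 and 285 FPKM in fresh and 367, 362 and 360.4 FPKM in boiled medium, a small change without overlap (0.34 ± 0.03, edgeR adjusted p = 8.72e-13). Among the falls were the fibril-associated collagen COL12A1 (-0.86 ± 0.05), the basement membrane collagen COL4A1 (-0.79) and the integrin subunit ITGA6 (-0.50).

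Genes of cell division were lower in boiled medium almost throughout. In mitosis, 32 of 33 genes of spindle, kinetochore and cytokinesis fell and none rose, with a median of -0.64. The exception was PRC1, whose change of -0.38 did not pass the test. MKI67, the proliferation antigen made outside rest (ENSG00000148773, chromosome 10, 128096659 to 128126385), read 30.9, 30.1 and 31.7 FPKM in fresh and 17.5, 20.2 and 19.6 FPKM in boiled medium. The fresh samples were higher without overlap (-0.70 ± 0.04, edgeR adjusted p = 1.13e-16). TOP2A, the topoisomerase that untangles chromosomes, stood at 74.7, 75.1 and 80.8 FPKM in fresh and 48.4, 46.4 and 44.9 FPKM in boiled medium (-0.73 ± 0.04, edgeR adjusted p = 6.42e-18), and the centromeric histone CENPA fell by 0.78 on the log2 scale. For DNA replication 36 of 40 genes fell and none rose (median -0.40). RRM2, the inducible subunit that makes deoxynucleotides, was at 9.44, 8.96 and 8.98 FPKM in fresh and 5.40, 5.32 and 5.71 FPKM in boiled medium, the fresh values all being higher (-0.74 ± 0.07, edgeR adjusted p = 8.85e-12). CCNE2, a cyclin of S phase entry, had 3.75, 3.01 and 3.80 FPKM in fresh and 2.23, 2.06 and 2.79 FPKM in boiled medium (-0.58 ± 0.13, edgeR adjusted p = 0.000421). The replicative helicase subunits fell little, from -0.42 for MCM4 to -0.11 for MCM6, and MCM5 did not pass the test (-0.03).

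Repair by homologous recombination and the Fanconi pathway, which acts on crosslinks between DNA strands such as some of those made by cisplatin, was lower as well. Of 18 listed genes 17 passed the filter, 15 fell and none rose, and the median was -0.65. XRCC2 (-0.89 ± 0.10), RAD54L (-0.87 ± 0.09), BRIP1 (-0.86 ± 0.08), BRCA2 (-0.70) and BRCA1 (-0.57) fell. PALB2 (-0.15) and RAD51D (-0.10) did not pass the test. The G1 regulators moved both ways, with 3 of 14 higher and 5 lower, beside 14% and 13.9% of all genes tested. The p53-induced inhibitor CDKN1A read 8.02, 9.82 and 9.20 FPKM in fresh and 11.6, 11.4 and 11.2 FPKM in boiled medium, without overlap (0.33 ± 0.08, edgeR adjusted p = 0.00194). RB1 (-0.48 ± 0.10) and CDKN2D (-0.63 ± 0.17) fell, the call of CDKN2D being lost without fresh replicate 3, and the lower count was 3 in place of 5 without that sample. CCND1 did not pass the test (0.04). Of 20 p53 targets 7 rose and none fell (median 0.15), led by the death gene PMAIP1 (0.83 ± 0.07), whereas MDM2 (-0.09) and BAX (-0.37) did not pass. That count was 3 to 4 without any single one of boiled replicates 2 and 3 and fresh replicates 2 and 3.

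Sterol synthesis genes were lower. SREBP2, held in the endoplasmic reticulum by INSIG proteins when sterol is plentiful, drives the mevalonate pathway when sterol runs short. Of 26 listed genes 25 passed the filter, 19 fell and 1 rose (TM7SF2, 0.30), and the median was -0.40. INSIG1 (ENSG00000186480, chromosome 7, 155297776 to 155310235) read 11.8, 11.4 and 10.9 FPKM in fresh and 3.99, 3.92 and 4.35 FPKM in boiled medium. The fresh samples were all higher (-1.48 ± 0.08, edgeR adjusted p = 2.73e-18). In the synthetic arm IDI1 (-0.93 ± 0.06), SQLE (-0.86 ± 0.06) and FDFT1 (-0.69) fell, and CYP51A1 did not pass the test (-0.08). In the 250 upstream bases the sterol element TCACNCCAC was found in 1 of 18 promoters of tested members, against 0.875% of all promoters.

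Fatty acid synthesis followed, as 10 of 12 tested genes fell and 1 rose (median -0.46). SCD, the desaturase that makes oleate, stood at 91.6, 89.0 and 92.6 FPKM in fresh and 54.4, 55.4 and 53.2 FPKM in boiled medium. The boiled samples were lower without overlap (-0.75 ± 0.04, edgeR adjusted p = 1.17e-20). FASN, the fatty acid synthase, fell from 59.0 ± 1.90 to 34.8 ± 2.63 FPKM (SD, n = 3; -0.77 ± 0.04), and the desaturases FADS1 (-0.75 ± 0.05) and FADS2 (-0.60 ± 0.05) overlap each other. The acetate-using enzyme ACSS2 rose (0.45). LXR targets export sterol, and of 8 tested 2 rose and none fell, APOE by the larger amount, from 29.3 ± 1.67 to 89.3 ± 5.89 FPKM (SD, n = 3; 1.60 ± 0.06). Without boiled replicate 2 or fresh replicate 3 the rises were 1. The exporter ABCA1 read 4.85, 4.799 and 5.28 FPKM in fresh and 5.79, 5.58 and 5.23 FPKM in boiled medium, with overlapping groups (0.15 ± 0.06, edgeR adjusted p = 0.0861). In fatty acid oxidation and storage 2 of 12 rose, the lipid droplet coat PLIN2 (0.80 ± 0.06) and ACADVL (0.32 ± 0.11), and 2 fell, ETFDH and ACADM. The calls of ACADVL, ETFDH and ACADM were each lost without single samples.

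The amino acid response driven by ATF4 was lower in its transport and synthesis arms. Of 45 listed genes 44 passed the filter, 22 fell and 4 rose, and the median was -0.23. Without boiled replicate 1 the rises were 2. The cystine importer SLC7A11 had the largest fall, from 2.06 ± 0.171 to 0.742 ± 0.201 FPKM (SD, n = 3; -1.48 ± 0.13, edgeR adjusted p = 4.01e-12). PSAT1, an enzyme of serine synthesis (ENSG00000135069, chromosome 9, 78297143 to 78330093), read 34.9, 33.4 and 33.3 FPKM in fresh and 19.7, 15.99 and 15.6 FPKM in boiled medium. Each fresh sample was above each boiled one (-0.99 ± 0.07, edgeR adjusted p = 8.82e-15). The tRNA synthetases fell in 8 of 12 cases, YARS (-0.41) the most. Of the factors and feedback genes 4 rose and 2 fell. The pseudokinase TRIB3 (-0.62 ± 0.11) was lower and the stress protein NUPR1 (1.07, at a mean below 1 FPKM in both groups) higher. ATF4 itself did not pass the test (-0.07). DDIT3, the death-linked factor CHOP, was at 8.86, 11.3 and 8.64 FPKM in fresh and 6.21, 7.63 and 7.07 FPKM in boiled medium (-0.46 ± 0.14, edgeR adjusted p = 0.00927), a call lost without boiled replicate 1 or fresh replicate 2. CHAC1, which degrades glutathione, had 1.39, 1.44 and 1.80 FPKM in fresh and 1.28, 1.13 and 1.56 FPKM in boiled medium with overlap (-0.22 ± 0.22, edgeR adjusted p = 0.494). ASNS, the asparagine synthetase, was low at 0.289, 0.390 and 0.460 FPKM in fresh and 0.385, 0.220 and 0.195 FPKM in boiled medium and also overlapped (-0.52 ± 0.39, edgeR adjusted p = 0.349). The ATF4 element TGATGNAAN was found in 3 of 26 promoters of tested members, against 3.18% of all promoters.

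Nucleotide synthesis genes were lower. In purine and pyrimidine synthesis 8 of 17 genes fell and none rose (median -0.26), PFAS (-0.45 ± 0.06), CTPS1 (-0.38 ± 0.06) and the pyrimidine enzyme CAD (-0.36 ± 0.04) among them. ODC1, the first enzyme of polyamine synthesis (ENSG00000115758, chromosome 2, 10439968 to 10448504), stood at 35.0, 31.8 and 35.5 FPKM in fresh and 16.4, 15.4 and 15.3 FPKM in boiled medium. The boiled samples were lower by more than their spread (-1.13 ± 0.07, edgeR adjusted p = 2.72e-17). Of 4 polyamine genes 2 fell and none rose (median -0.24). Ribosome assembly factors and these polyamine genes formed a list of 26, in which 12 fell and 1 rose (median -0.21), with small changes such as DKC1 (-0.33 ± 0.06) and NCL (-0.12). MYC, which drives many of them, fell by 0.20 on the log2 scale.

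Genes of translation and respiration had small changes in both directions, beside shares of 14% higher and 13.9% lower over all genes tested. Of 40 cytosolic ribosomal protein genes 12 rose and 3 fell (median 0.06), from -0.20 for RPL6 to 0.32 for RPL10A. The fall count was 5 to 6 with a GC and length correction, in the fit of the 6 samples or without boiled replicate 3. Of 38 nuclear genes of oxidative phosphorylation 8 rose and 3 fell (median 0.07), or 7 fell with that correction and 1 without boiled replicate 2. Among 13 mitochondrially encoded genes 4 fell and 2 rose (median -0.16), MT-ND1 (0.26) higher and MT-CYB (-0.21) lower, the latter call being lost without boiled replicate 3. In the proteasome 2 of 27 rose and 5 fell (median -0.05), or 3 fell in 6 other settings, among them without boiled replicate 1 or 2 or fresh replicate 2. The 2 proteasome rises were 0 to 1 without single samples other than boiled replicate 1 and fresh replicate 2.

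Chaperones of the cytosol were lower. Of 18 heat shock genes 11 fell and none rose, with a median of -0.14. HSPA1B, the heat-induced HSP70, read 38.5, 33.4 and 35.3 FPKM in fresh and 24.4, 23.5 and 26.7 FPKM in boiled medium, the fresh values being higher without overlap (-0.53 ± 0.06, edgeR adjusted p = 1.25e-08). Its near-identical copy HSPA1A changed by -0.41, and the split of reads between them is uncertain. HSP90AA1 fell from 437 ± 8.80 to 307 ± 5.46 FPKM (SD, n = 3; -0.51 ± 0.04). Over all genes tested 14% were higher and 13.9% lower, and the unfolded protein response of the endoplasmic reticulum lay near these shares. In it 4 of 21 genes were higher and 4 lower, or 2 higher without fresh replicate 2. HSPA5, its main chaperone BiP, stood at 199.9, 197 and 202 FPKM in fresh and 203, 203 and 199 FPKM in boiled medium, with overlapping groups (0.01 ± 0.03, edgeR adjusted p = 0.897).

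Lysosomal genes included several rises: 13 of 27 were higher and 5 lower (median 0.14). The lysosomal glycoprotein GPNMB (1.79 ± 0.20), the factor TFEB (0.70 ± 0.14) and the cathepsins CTSB (0.69 ± 0.04) and CTSL (0.51 ± 0.07) rose. Without boiled replicate 1 the counts were 8 and 3, and 1 to 3 fell without boiled replicate 2 or 3, without fresh replicate 1 or 2, or with no filter. Of 21 NRF2 targets 5 rose and 6 fell (median 0.06), or 3 rose among genes with a mean FPKM of at least 1. Over all genes tested 14% rose and 13.9% fell. The iron store FTH1 (0.79 ± 0.04) and the conjugate exporter ABCC3 (1.45 ± 0.11) were higher and GCLM (-0.27) lower. HMOX1, which degrades heme, read 8.72, 8.37 and 8.50 FPKM in fresh and 10.6, 9.90 and 10.8 FPKM in boiled medium (0.29 ± 0.08, edgeR adjusted p = 0.00786), and that call was lost with the GC and length correction. Among 7 tested targets of the aryl hydrocarbon receptor, which senses aromatic compounds, 2 rose and 1 fell, or 1 rose without boiled replicate 3. CYP1B1, an oxidase it induces, was at 4.15, 3.81 and 4.51 FPKM in fresh and 9.10, 8.22 and 7.85 FPKM in boiled medium, all boiled samples being higher (1.01 ± 0.08, edgeR adjusted p = 4.15e-14), while the receptor's repressor AHRR fell (-0.35 ± 0.09). Its element TTGCGTG was in none of 6 promoters of tested members (0.956% of all promoters), and the NRF2 element TGACNNNGC was in 4 of 16 (11% of all). Of 10 ABC transporters 2 rose and 3 fell, or 5 fell without boiled replicate 2.

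Growth factor response genes moved both ways, beside shares of 14% higher and 13.9% lower over all genes tested. Of 31 immediate early genes 10 rose and 5 fell (median 0.11), or 8 fell with the GC and length correction. EGR1, a zinc finger factor induced within minutes of stimulation, read 25.4, 27.2 and 25.6 FPKM in fresh and 32.9, 35.0 and 35.1 FPKM in boiled medium with no overlap (0.40 ± 0.06, edgeR adjusted p = 2.34e-07). KLF4 (1.01 ± 0.11), KLF2 (0.71 ± 0.11) and EGR3 (2.72, at a mean of 0.698 FPKM in boiled medium) rose as well. The MAP kinase phosphatase DUSP1 fell from 66.1 ± 2.23 to 41.4 ± 1.80 FPKM (SD, n = 3; -0.68 ± 0.06). FOS was at 2.87, 3.67 and 3.66 FPKM in fresh and 2.93, 3.08 and 2.78 FPKM in boiled medium, with overlap (-0.22 ± 0.12, edgeR adjusted p = 0.188), and it passed as lower with the GC and length correction. Of 16 YAP targets 5 rose and 6 fell. CYR61, a matricellular target, had 232, 219 and 218 FPKM in fresh and 231, 251 and 259 FPKM in boiled medium (0.14 ± 0.04, edgeR adjusted p = 0.00401). Its groups overlapped, and the call was lost with the GC and length correction or without boiled replicate 3.

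The small counts of the next lists stand beside shares of 14% higher and 13.9% lower over all genes tested. In TGF-beta and BMP feedback 3 of 13 rose and 3 fell, the BMP targets ID1 (-0.34 ± 0.05), ID3 (-0.68 ± 0.09) and SMAD6 (-0.63 ± 0.11) being lower. Of 15 Wnt genes 1 rose and 3 fell, among them WNT5B (-0.70 ± 0.07). The Wnt rises were 2 without boiled replicate 2. For the epithelial-mesenchymal state 1 of 17 rose and 2 fell, or 3 rose and 1 fell without fresh replicate 1, and 1 fell without boiled replicate 1 or 3 or fresh replicate 2. VIM, an intermediate filament of mesenchymal cells, was at 183, 180.2 and 181 FPKM in fresh and 214, 211 and 199 FPKM in boiled medium (0.19 ± 0.04, edgeR adjusted p = 6.3e-05). CDH1, the epithelial cadherin, was near absent at 0.0906, 0.0521 and 0.0448 FPKM in fresh and 0.1202, 0.109 and 0.0815 FPKM in boiled medium with overlap (0.70 ± 0.51, edgeR adjusted p = 0.339), and CDH2, the cadherin these cells expressed more, fell by 0.50 on the log2 scale. Of 11 tested stem-like cell markers 3 rose, KLF4, CD24 (0.47 ± 0.04) and ALDH1A3 (0.40 ± 0.13, a call lost without single samples). The 2 falls were MYC and the pluripotency factor SOX2 (-1.86, at a mean below 1 FPKM in both groups). Only 1 fell without boiled replicate 1 or 2 or fresh replicate 2 or 3. ALDH1A1 had 0 counts in all 6 samples and was not tested, and a level too low for this depth cannot be told from absence.

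Glucocorticoid and FOXO targets rose in 7 and fell in 2 of 14 cases (median 0.35), with 1 fall without any single sample other than boiled replicate 3. The insulin receptor INSR (0.67 ± 0.08) and CITED2 (0.70 ± 0.05) were higher. SGK1, a kinase induced by steroids and serum (ENSG00000118515, chromosome 6, 134169246 to 134318112), read 3.37, 3.59 and 3.96 FPKM in fresh and 1.41, 1.48 and 1.42 FPKM in boiled medium, lower in boiled medium without overlap (-1.35 ± 0.10, edgeR adjusted p = 3.89e-14). In the BCL2 family 4 of 13 rose and 1 fell, the death genes PMAIP1 and BMF (0.46 ± 0.06) up and BCL2L11 (-0.32 ± 0.06) down. The rises were 2 without boiled replicate 2 or 3 or fresh replicate 3. Of 5 tested nuclear long RNAs 1 fell, SNHG1 (-0.27 ± 0.05), and the paraspeckle scaffold NEAT1 was at 5.95, 6.41 and 6.34 FPKM in fresh and 6.20, 6.37 and 6.99 FPKM in boiled medium with overlap (0.06 ± 0.09, edgeR adjusted p = 0.672).

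Other genes stood out by size alone. Among the 15 largest rises with a mean FPKM of at least 1 and no overlap were PDZK1IP1, a small membrane protein (2.95 ± 0.30), the collagen COL8A2 (2.40 ± 0.24), the prostaglandin synthase PTGDS (2.16 ± 0.30), the cytokine signal inhibitor SOCS1 (2.12 ± 0.21) and the lectin SIGLEC15 (2.09 ± 0.21). SIGLEC15 read 0.809, 0.715 and 0.662 FPKM in fresh and 2.44, 3.67 and 3.24 FPKM in boiled medium. Among the 15 largest falls, GFRA1, a co-receptor for the neurotrophic factor GDNF (ENSG00000151892, chromosome 10, 116056925 to 116273467), stood at 2.46, 1.99 and 1.85 FPKM in fresh and 0.484, 0.430 and 0.449 FPKM in boiled medium, with no overlap (-2.21 ± 0.15, edgeR adjusted p = 1.08e-15). WISP2, a matricellular protein of the CCN family, had 2.08, 2.25 and 2.31 FPKM in fresh and 0.596, 0.479 and 0.524 FPKM in boiled medium (-2.05 ± 0.19, edgeR adjusted p = 8.44e-12). The natriuretic peptide gene NPPB went from 47 counts over the fresh samples to 2 over the boiled ones. The ratio of fresh to boiled depth-scaled counts was 25.9 with an exact 95% interval of 6.77 to 219.8. That interval covers counting error only and not the choice of the gene by the size of its fall. The vasoconstrictor peptide EDN1 fell by 1.62 on the log2 scale. Falls in POTEE and CGB8 are uncertain because these genes have near-identical copies.

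The label of the cells was checked against markers. Of 12 ovarian serous and epithelial markers 7 were above 1 FPKM in both groups, PAX8, EPCAM, KRT7, KRT8, KRT18, MSLN and CD24. WT1 (0.208 to 0.422 FPKM) and CDH1 (0.0448 to 0.1202 FPKM) passed the filter but stayed below 1 FPKM in all 6 samples. MUC16, KRT19 and SOX17 were below the filter. The summed FPKM of the 12 was 622 to 653 in fresh and 706 to 729 in boiled samples. PAX8 (0.36 ± 0.05), CD24 and MSLN (0.59 ± 0.07) were higher and KRT7 lower. Fibroblast markers summed to 213 to 227 and 219 to 222 FPKM, nearly all from COL1A1, with COL1A2 and DCN at or near 0. PDGFRB stood at 7.56 to 8.49 FPKM in fresh and 7.90 to 8.46 FPKM in boiled samples, and LUM rose (1.70 ± 0.27). Endothelial markers summed to 0.996 to 1.36 and 1.41 to 1.92 FPKM, with EMCN at 0 in all 6. PECAM1 (2.50) and VWF (1.00) rose at low levels. PECAM1 read 0.101, 0.174 and 0.121 FPKM in fresh and 0.545, 1.02 and 0.684 FPKM in boiled medium. VWF read 0.135, 0.0495 and 0.0426 FPKM in fresh and 0.126, 0.177 and 0.159 FPKM in boiled medium, with overlapping groups. The part of these cell types in the rises of the immune lists was not tested.

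Boiled medium was tested directly against intact, proliferative and small fraction medium, while the large fraction is set beside it only by its values against fresh medium. Against intact senescent medium 2157 genes were higher in boiled medium (11.2%) and 2822 lower (14.7%), though scaling by library totals turned this split to 2838 and 2158. Against proliferative medium 1997 were higher (10.4%) and 1826 lower (9.51%), and against the small fraction 3011 (15.7%) and 2553 (13.3%). That scaling turned these splits too, to 1641 and 2155 against proliferative medium and to 2464 and 3028 against the small fraction. All comparisons with fresh medium share the same 3 fresh samples, so their medians are given side by side only.

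Hypoxia targets lay between the small fraction and the other media. Their median log2 change against fresh medium was 0.75 in boiled, 1.04 in intact senescent, 1.26 in proliferative, 1.19 in the large fraction and -0.40 in the small fraction. Of the 27 tested, 20 were lower in boiled than in intact medium and 1 higher, and 23 were higher in boiled medium than in the small fraction and 1 lower. NDRG1 averaged 127 ± 2.98 FPKM in intact, 172 ± 2.88 in proliferative and 10.6 ± 0.115 in the small fraction (SD, n = 3), against 59.1 in boiled medium. The differences of boiled medium from these 3 were -1.11, -1.54 and 2.47 on the log2 scale (edgeR adjusted p = 8.46e-27, 5.25e-32 and 2.66e-39). Glycolytic genes also lay between intact medium and the small fraction, with 17 of 25 genes lower and 2 higher in boiled than in intact medium, and 23 higher and 2 lower than in the small fraction.

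Cell division genes were lower in boiled than in intact medium. Of 33 mitosis genes 31 were lower and none higher, with medians against fresh medium of -0.64 in boiled and -0.03 in intact medium. In DNA replication 22 of 40 were lower in boiled than in intact medium and 1 higher, but 22 were higher and 1 lower than in proliferative medium. Against proliferative medium 10 of 33 mitosis genes were lower and none higher, or 6 lower without boiled or proliferative replicate 2. Against the small fraction 29 of 33 mitosis genes and 35 of 40 replication genes were higher in boiled medium and none lower.

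Sterol genes, too, were lower in boiled than in intact medium, in 21 of 25 cases with none higher, and the list's medians against fresh medium were -0.40 and 0.13. Against proliferative medium 4 were lower and none higher. INSIG1 averaged 10.6 ± 0.318 FPKM in intact and 4.78 ± 0.146 in proliferative medium (SD, n = 3), beside 4.09 in boiled medium (-1.38, edgeR adjusted p = 7.1e-17, and -0.22, edgeR adjusted p = 0.0786). Interferon-stimulated genes were higher in boiled than in intact medium in 13 of 28 cases and lower in 1, and IFIT2 differed by 1.27 (edgeR adjusted p = 1.42e-15). Against proliferative medium 2 of the 28 were higher in boiled medium and 8 lower, with 1 higher when any single sample was left out, and IFIT2 differed by -0.34 (edgeR adjusted p = 0.00109). Against the small fraction 6 were higher and 7 lower. Of 8 genes of metal handling 5 were higher and 1 lower than in intact medium, MT1X by 1.07, whereas 4 were lower and 1 higher than in proliferative medium. Cytosolic ribosomal protein genes were lower than in intact medium in 37 of 40 cases, with none higher. Their median against fresh medium was 0.39 in intact and 0.06 in boiled medium. It was 0.05 in proliferative medium, 0.05 in the small and -0.04 in the large fraction. In boiled medium 10 were higher and 1 lower than in proliferative medium, and 9 were higher and none lower than in the small fraction.

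**Figure D4:**
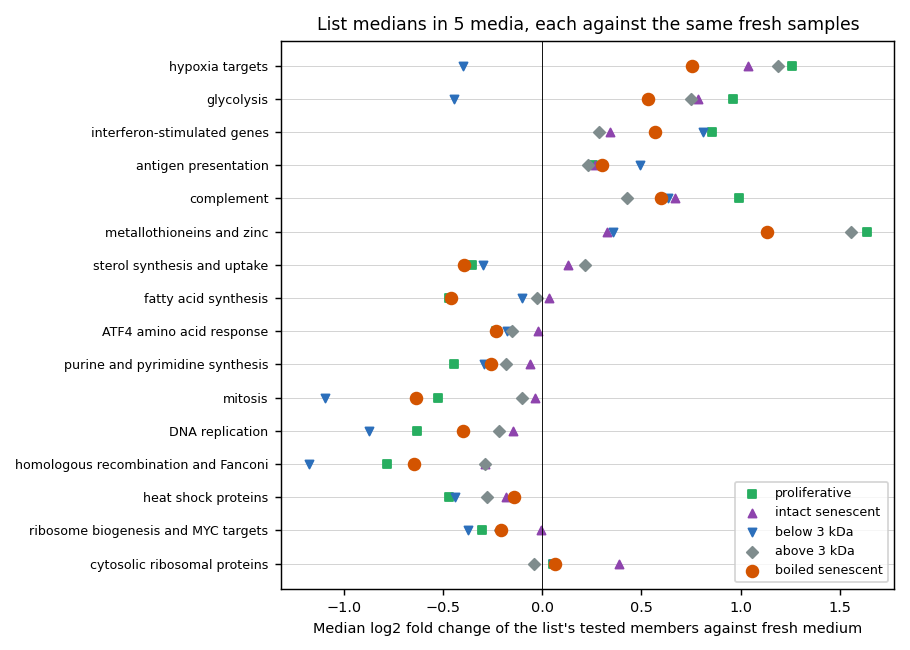
Points give the median log2 fold change of each list's tested members against fresh medium for 5 media. Boiled medium (orange circles) lies near intact medium (purple triangles) for antigen presentation (0.30 and 0.26) and apart from it for mitosis (-0.64 and -0.03) and sterol synthesis (-0.40 and 0.13).

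A few genes set boiled medium apart from all 3 of these media. WISP2 was lower than in intact (-2.26), proliferative (-1.69) and small fraction medium (-2.44), with edgeR adjusted p = 7.22e-13, 7.75e-09 and 4.38e-14. SIGLEC15 was higher than in the same media by 1.77, 1.19 and 1.28 (edgeR adjusted p = 4.13e-09, 9.74e-06 and 1.12e-06). SCD was lower than in all 3 as well, with differences of -1.11, -0.62 and -0.41 (edgeR adjusted p = 1.37e-26, 2.07e-17 and 3.05e-12). These genes were picked after their values were seen, as was MMP1, whose direction depended on the medium. MMP1 did not pass the test against fresh medium and averaged 21.5 ± 1.92 FPKM in intact medium (SD, n = 3). In boiled medium it was lower than in intact medium (-1.39, edgeR adjusted p = 3.9e-15) and higher than in proliferative medium (0.74, edgeR adjusted p = 2.02e-06) and the small fraction (0.37, edgeR adjusted p = 0.00554). That last call was lost without boiled or small fraction replicate 2.

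**Figure D5:**
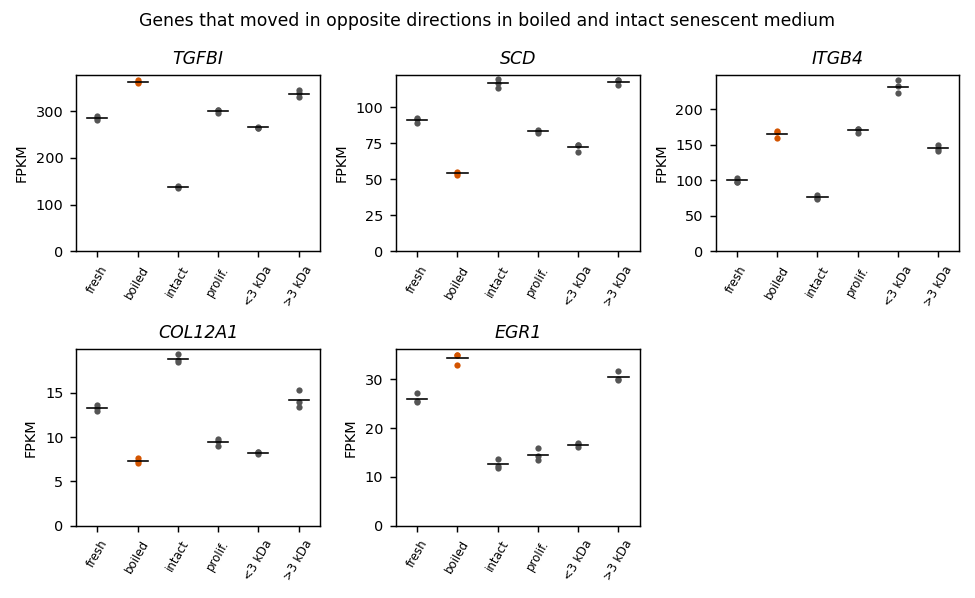
Points are the FPKM of single samples in 6 media and lines are group means, with boiled medium in orange. TGFBI, ITGB4 and EGR1 lie above fresh medium in boiled and below it in intact senescent medium (TGFBI averages 285, 363 and 138 FPKM in fresh, boiled and intact medium), and SCD and COL12A1 the other way round.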

How the data were processed

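RNA of 24 samples of OVCAR8 cells in 8 groups of 3 was sequenced. Per the file headers, the deposited table holds a count per gene and sample and the authors' FPKM, the count scaled by gene length and library depth. Among genes with over 100 counts the deposited FPKM equalled the count per gene length over 1 constant per library, within a relative range of at most 2.21e-08, and that constant was 0.965 to 1.04 times the library's total count. Per the submitters' processing notes, STAR 2.6.1, DESeq2 version 2 and GRCh38 were used, while the counter and its strand setting are not named there. All 58735 genes lay at their GENCODE 29 positions.

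Counts were tested with edgeR 4.0.16 in R 4.3.3 (filterByExpr, TMM factors of 0.957 to 1.03, robust quasi-likelihood fit of 8 group means, 16 residual degrees of freedom, two-sided), with Benjamini-Hochberg adjustment over 19210 genes and a threshold of 0.05. The SE was derived from the log2 change and its F statistic (the change over the root of F) and is approximate. The biological coefficient of variation was 0.0638. Within the boiled and the fresh group every pair of libraries differed by more than sampling noise (chi-square per degree of freedom 2.26 to 4.45), so each counted as 1 replicate. The script was tested on simulated data.

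The 45 lists hold 899 genes, of which 819 were tested. Named genes are the 15 largest rises and falls among protein-coding genes with an adjusted p under 0.05, a mean FPKM of at least 1 and no overlap, up to 4 called genes of such a level per list, a set shown whatever its result, 5 genes each way in the other 3 comparisons and up to 6 genes that moved opposite to intact medium. Some genes that the rule names are not reported here. Further list members and other genes were named after their values were seen. The members, lists and this rule were chosen with earlier results of these data known.

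Alternatives were library totals, DESeq2 1.42.0, no filter or a mean FPKM of at least 1, the 6 samples alone, limma 3.58.1 on log2(FPKM + 0.1) and log2(FPKM + 1), a replicate block, a correction for GC content and gene length, both together, and leaving out each replicate. Figures were drawn with matplotlib 3.10.9. Promoter motifs were counted on both strands of the 250 bases upstream of each start in RefSeq sequences of GRCh38.p14.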

Additional observations from a re-analysis of the deposited data

Results flagged for a closer look

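In 211 genes with a mean FPKM of at least 1 the change against fresh medium was called in boiled and in intact senescent medium with opposite sign, and the difference between both media was called too. Of these 73 were higher in boiled and lower in intact medium, and 138 the reverse. Both changes use the same 3 fresh samples, while the direct test of boiled against intact medium does not use them. Given here are 5 genes with among the smallest p in that test, by mean FPKM in fresh, boiled and intact medium (n = 3 each).

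The matrix protein TGFBI averaged 285, 363 and 138 FPKM, and boiled exceeded intact medium by 1.40 on the log2 scale (edgeR adjusted p = 1.18e-33). TGFBI stood at 296 to 303 FPKM in proliferative medium, 264 to 267 in the small and 329 to 345 in the large fraction. The laminin receptor subunit ITGB4 averaged 100.2, 166 and 76.1 FPKM, a difference of 1.12 (edgeR adjusted p = 1.46e-26). ITGB4 stood at 167 to 172 FPKM in proliferative medium, 223 to 241 in the small and 142 to 150.2 in the large fraction, and boiled differed from proliferative medium by -0.04 (edgeR adjusted p = 0.455). The immediate early factor EGR1 averaged 26.0, 34.3 and 12.6 FPKM, a difference of 1.45 (edgeR adjusted p = 4.52e-23). EGR1 stood at 13.4 to 15.8 FPKM in proliferative medium, 16.2 to 16.9 in the small and 29.8 to 31.8 in the large fraction. In the other direction, the desaturase SCD averaged 91.1, 54.3 and 117 FPKM, a difference of -1.11 (edgeR adjusted p = 1.37e-26). SCD stood at 82.2 to 84.2 FPKM in proliferative medium, 69.1 to 74.1 in the small and 115 to 119 in the large fraction. The collagen COL12A1 averaged 13.3, 7.34 and 18.8 FPKM, a difference of -1.36 (edgeR adjusted p = 4.7e-25). COL12A1 stood at 9.03 to 9.72 FPKM in proliferative medium, 8.06 to 8.35 in the small and 13.4 to 15.3 in the large fraction. The sign and the call of all 5 differences held in each alternative run for that comparison.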

How the results depend on the processing

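The counts of 2695 higher and 2664 lower genes against fresh medium stayed within 1.5 times under every alternative run, from 2214 to 3051 higher and from 2214 to 3240 lower. They were 2601 and 2453 with DESeq2, and 2214 to 2334 and 2214 to 2256 without single replicates. Changes past a log2 of 1 moved more: 238 higher and 99 lower genes remained in number when a mean FPKM of at least 1 was required, and 76 and 20 with limma on log2(FPKM + 1), against 463 and 163. Without single replicates they were 434 to 478 and 153 to 177. With a replicate block the counts were 2674 higher and 2639 lower. Deviations of equal-numbered boiled and fresh samples from their group means correlated at -0.047, 0.007 and -0.035 over 15817 genes. These values show no deviation shared by replicate number. Whether the samples were prepared in pairs was not tested, because a small shared effect could be hidden by the spread between libraries.

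Scaling by library totals gave 2838 higher and 2158 lower against intact, 1641 and 2155 against proliferative medium, and 2464 and 3028 against the small fraction, with medians over all genes of 0.05, -0.02 and -0.04. Without single replicates these comparisons gave 1599 to 1986 and 2282 to 2698, 1421 to 1647 and 1309 to 1599, and 2522 to 2888 and 1988 to 2418.

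For 212 named genes 3378 alternative values were computed. The outcome, called or not called, was the same in 3255, which includes genes called in neither fit. A call was lost in 104 and gained in 19, and no call turned its sign. In 178 genes the outcome was the same under each alternative that gave a value. Scarce genes such as CA9 and NPPB are limited by depth.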
